A study of Homo sapiens with 8 samples.

Results

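The transcripts of 6 genes of the hyaluronan-rich pericellular matrix, TNFAIP6, PTX3, HAS2, HAS3, CD44 and TNC, were followed in human chordoma cells with and without TNF-α. They are 6 of 22395 genes that had a probe set carrying no other gene symbol in the platform annotation. The set was drawn up with earlier TNF results of these arrays known, so the differences between TNF and control arrays in these genes are given as a description, without a test. CD44 had 2 such probe sets, of which the brighter was used, and each of the other genes had 1.

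The arrays covered U-CH1 and MUG-Chor1, cell lines established from chordomas, which are bone tumours that resemble the embryonic notochord. Each line had 3 control arrays of cells grown in monolayer in serum-containing medium on gelatin, and 1 array of cells given recombinant human TNF-α at 10 ng/mL, in 3 additions a week for 1 week. The labels name no genetic modification of the cells in any group. Nothing in the labels places the controls in separate cultures, so p-values speak only to the scatter among these samples, and that scatter may be technical. Each line's TNF array is single and has no replicate, and anything particular to that array cannot be told apart from TNF.

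Hyaluronan is a long unbranched sugar polymer that hyaluronan synthases extrude through the cell membrane. TNFAIP6 encodes TSG-6, a secreted protein that inflammatory cytokines induce and that transfers heavy chains of the serum protein inter-alpha-inhibitor onto hyaluronan; the long pentraxin PTX3 binds those heavy chains and helps to hold the polymer together. CD44 is the main cell-surface receptor of hyaluronan, and tenascin-C, the product of TNC, is a matrix glycoprotein laid down in development, wounds and tumours.

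The sequences just upstream of TNFAIP6, PTX3 and TNC are shown because these 3 genes had the largest positive differences of the 6 on the array of TNF-treated MUG-Chor1. Each is the 250 bases before the RefSeq transcription start on build GRCh38.p14, written 5′ to 3′ on the gene's strand, with motif matches in capitals. TNFAIP6 lies on the plus strand (chr2:151357342-151357591), PTX3 on the plus strand (chr3:157436600-157436849) and TNC on the minus strand (chr9:115118158-115118407).
TNFAIP6: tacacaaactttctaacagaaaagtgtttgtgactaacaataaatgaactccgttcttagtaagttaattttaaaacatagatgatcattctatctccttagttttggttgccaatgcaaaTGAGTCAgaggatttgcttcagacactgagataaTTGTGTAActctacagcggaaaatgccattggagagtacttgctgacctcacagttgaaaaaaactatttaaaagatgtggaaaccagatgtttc
PTX3: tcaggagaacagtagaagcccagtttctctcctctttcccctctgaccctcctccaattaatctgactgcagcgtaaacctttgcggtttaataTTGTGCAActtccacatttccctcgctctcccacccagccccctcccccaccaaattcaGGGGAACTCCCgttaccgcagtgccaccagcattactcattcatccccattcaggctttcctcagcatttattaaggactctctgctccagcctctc
TNC: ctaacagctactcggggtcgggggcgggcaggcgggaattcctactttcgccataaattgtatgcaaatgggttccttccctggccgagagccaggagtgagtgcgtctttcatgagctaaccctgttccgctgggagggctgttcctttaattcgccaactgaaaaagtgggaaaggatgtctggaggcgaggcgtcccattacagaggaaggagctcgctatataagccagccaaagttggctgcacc
Both strands were searched for 3 motifs, chosen with these sequences in view: the NF-kB consensus, the AP-1 motif TGANTCA and the C/EBP-type motif TTNNGNAA. The NF-kB consensus was searched as GGGRNNYYCC, where R is A or G, Y is C or T and N is any base. PTX3 held the NF-kB consensus, in the overlapping matches GGGGAACTCC (97 to 88 bases before the start) and GGGAACTCCC (96 to 87 bases before it), the latter read on both strands. Of 35116 promoter windows of this length in the table, 9.96% hold that motif. TNFAIP6 held the AP-1 match TGAGTCA, 129 to 123 bases before its start, a motif found in 6.57% of windows. TTNNGNAA was found in both, as TTGTGTAA in TNFAIP6 (95 to 88 bases before the start) and as TTGTGCAA in PTX3 (156 to 149 bases before it), and in 33.2% of all windows. The TNC, CD44 and HAS3 windows held no full match to these patterns. The TNC window does hold gggaattcct, which departs from the NF-kB consensus at its last base only, so a looser pattern would count it. The promoter table matched 5 of the 6 genes, all but HAS2. A match is a run of letters and not a measured binding site.

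All values are log2 array values, and a difference of 1 is a doubling of signal. The arrays had medians of 2.52 to 2.63 over all probe sets, and no pair of arrays was identical. TNFAIP3, an NF-kB feedback gene, read 3.58 higher on the U-CH1 TNF array and 2.84 higher on the MUG-Chor1 TNF array than on the controls. The adhesion molecule gene ICAM1 read 2.87 higher in U-CH1 and 3.65 higher in MUG-Chor1, and the chemokine gene CCL2 4.58 and 6.17 higher. The chordoma marker TBXT, which encodes brachyury, read 9.14 to 9.75 on all 6 controls. MUG-Chor1 control 3 lay well above controls 1 and 2 in 2 of the 3 TNF-responsive check genes: ICAM1, an adhesion molecule, read 6.75 on it against 4.55 and 4.24, and the chemokine gene CCL2 3.11 against 1.21 and 0.99. The third, TNFAIP3, read 4.65, 5.36 and 5.58 on these controls. The MUG-Chor1 differences of the 6 genes are therefore also given without control 3.

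All 6 genes passed the filter used for tests, a value over 2.57 on 1 or more arrays, 2.57 being the median of the whole deposited table. TNFAIP6 did so through the TNF arrays alone, with 0 of 6 controls above the line, PTX3 had 4 of 6 controls above it, and the other 4 genes had all 6.

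TNFAIP6, the gene of TSG-6, had the largest difference of the 6 genes in MUG-Chor1. It read 2.04, 2.11 and 1.84 on the U-CH1 controls and 2.63 on the U-CH1 TNF array, and 1.84, 1.78 and 2.05 on the MUG-Chor1 controls and 7.40 on the MUG-Chor1 TNF array. Only the MUG-Chor1 TNF array was clearly above the low end of the scale, and the controls of the lines overlapped. Its difference from the control mean was 5.51 in MUG-Chor1, 45.7-fold (5.59 without control 3), and 0.63 in U-CH1, 1.55-fold. Ordered from the most positive difference, it was number 2 of 16986 genes in MUG-Chor1 and number 1538 in U-CH1. All 6 controls lay below the median of the whole table, at the low end of the scale, where arrays usually understate a fold.

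PTX3, the long pentraxin gene, also read highest on the MUG-Chor1 TNF array, over a more variable baseline. On the U-CH1 controls it read 2.64, 2.58 and 2.43, and on the U-CH1 TNF array 3.33. On the MUG-Chor1 controls it read 2.26, 3.24 and 4.47, and on the MUG-Chor1 TNF array 8.27. Each TNF array lay above all controls of its line, by 0.68 (U-CH1) and 3.80 (MUG-Chor1). The highest control was MUG-Chor1 control 3, which also exceeded the U-CH1 TNF array. The difference was 4.95 in MUG-Chor1, 30.9-fold and number 6 among all genes (5.52 without control 3), and 0.78 in U-CH1, 1.71-fold and number 1017.

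TNC, the tenascin-C gene, ranked the lines differently with and without TNF. It read 5.34, 5.50 and 5.42 on the U-CH1 controls and 5.66 on the U-CH1 TNF array. On the MUG-Chor1 controls it read 4.31, 4.02 and 3.42, and on the MUG-Chor1 TNF array 6.85. Untreated MUG-Chor1 lay below every U-CH1 array and treated MUG-Chor1 above every one of them, by 1.20 over the U-CH1 TNF array. The difference was 2.94 in MUG-Chor1, 7.68-fold and number 35 among all genes (2.69 without control 3). In U-CH1 it was 0.24, and the TNF array exceeded the highest control by 0.16, about the controls' own range.

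HAS2, which encodes a hyaluronan synthase, was the only one of the 6 genes to read lower on the MUG-Chor1 TNF array. It read 5.75, 6.25 and 6.77 on the U-CH1 controls and 6.33, within their range, on the U-CH1 TNF array. On the MUG-Chor1 controls it read 3.96, 3.67 and 4.20, and on the MUG-Chor1 TNF array 2.44, below the median of all values. The difference in MUG-Chor1 was -1.50, 2.84-fold lower and number 253 of 16986 from the most negative difference (-1.38 without control 3). As the TNF array lay at the low end of the scale, this fold too may be understated. In U-CH1 it was 0.08 against a control SD of 0.51 (n = 3), and it took either sign when single controls were left out (-0.18 to 0.33).

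HAS3, another hyaluronan synthase gene, varied little. It read 4.47, 3.95 and 3.93 on the U-CH1 controls, 3.69, 3.79 and 3.60 on the MUG-Chor1 controls and 4.04 on both TNF arrays. The U-CH1 TNF array lay within its controls (difference -0.08, and 0.10 without control 1). The MUG-Chor1 TNF array lay 0.24 above its highest control, a difference of 0.34 from the control mean (0.30 without control 3), and level with U-CH1.

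CD44, the receptor, differed between arrays by under 1 in all on its brighter probe set. It read 6.80, 6.91 and 7.25 on the U-CH1 controls and 6.66 on the U-CH1 TNF array, and 7.08, 7.28 and 7.11 on the MUG-Chor1 controls and 7.63 on the MUG-Chor1 TNF array. The TNF array was thus the lowest of its line in U-CH1 (difference -0.33) and the highest in MUG-Chor1 (0.48, and 0.45 without control 3), where the sign turned to -0.04 when both CD44 probe sets were averaged. The dimmer probe set read 4.23, 4.53 and 6.12 on the U-CH1 controls, 4.19 on the U-CH1 TNF array, 5.68, 5.92 and 6.54 on the MUG-Chor1 controls and 5.49 on the MUG-Chor1 TNF array. It was lower on the TNF array than on every control in both lines, and so disagreed with the brighter probe set in MUG-Chor1. CD44 is spliced into many isoforms, and the exons each probe set covers are not analysed here.

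**Figure D1:**
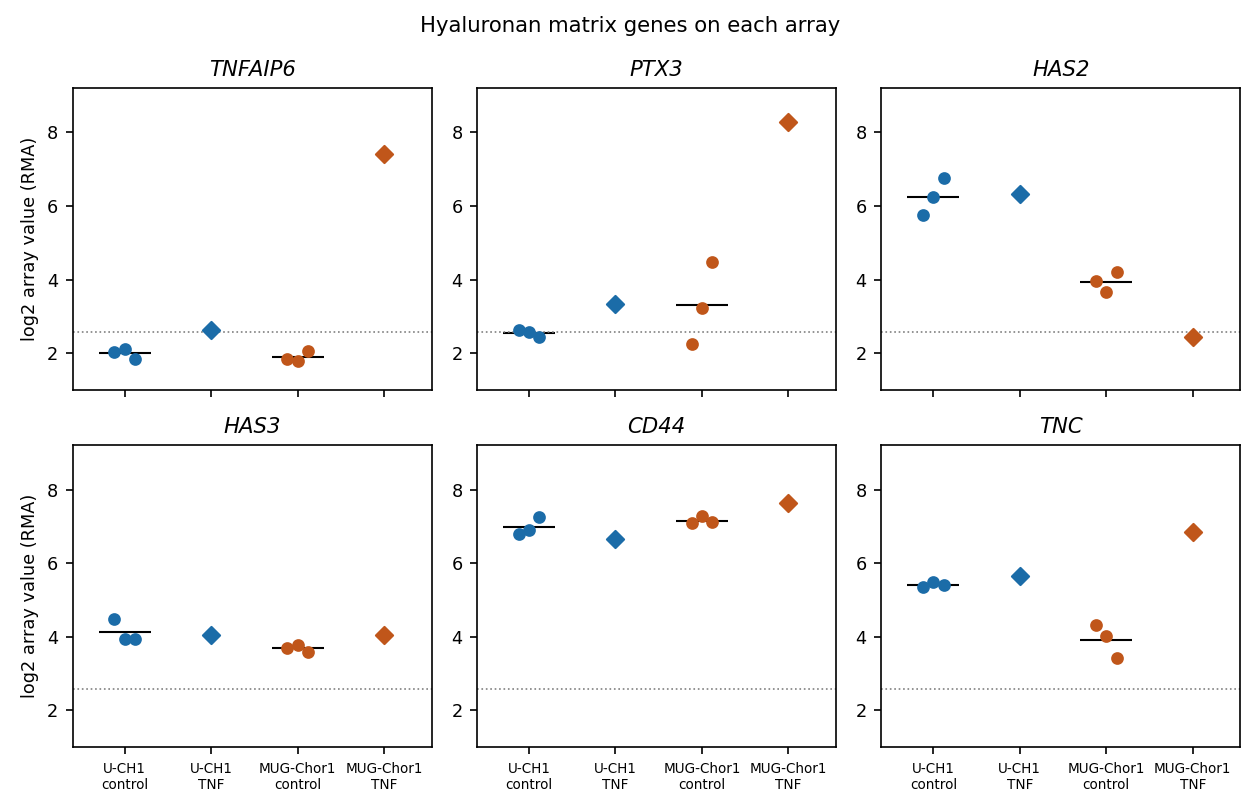
Log2 array value (vertical axis, same range in each panel) of the 6 genes, with control arrays as circles, TNF arrays as diamonds, the control mean as a short line and the whole table's median, 2.57, as a dotted line. TNFAIP6 and PTX3 reach 7.40 and 8.27 on the MUG-Chor1 TNF array, HAS2 reads 2.44 there, and TNC passes from the lowest group to the highest.

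Set side by side, the MUG-Chor1 differences ran from -1.50 to 5.51 and the U-CH1 differences from -0.33 to 0.78. The MUG-Chor1 TNF array lay above all 3 controls for 5 of the 6 genes, as it did for 35.3% of all 16986 genes, and below all 3 for HAS2, as it did for 23.9%. The U-CH1 TNF array lay above all 3 controls for TNFAIP6, PTX3 and TNC (30.8% of all genes), below all 3 for CD44 (23.4%) and among them for HAS2 and HAS3. A difference beyond 1 in size was seen for 4 of 6 genes in MUG-Chor1, against 6.85% of all genes, and for 0 of 6 in U-CH1, against 5.10%. The 6 genes had a median difference of 1.71 (MUG-Chor1) and of 0.16 (U-CH1), beside 0.06 and 0.04 over all genes. As the genes were chosen on these differences, the shares describe the choice. The MUG-Chor1 difference exceeded the U-CH1 difference by 4.88 for TNFAIP6, 4.17 for PTX3, 2.70 for TNC, 0.80 for CD44 and 0.42 for HAS3, and for HAS2 it was lower (-1.58); these gaps were not tested.

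**Figure D2:**
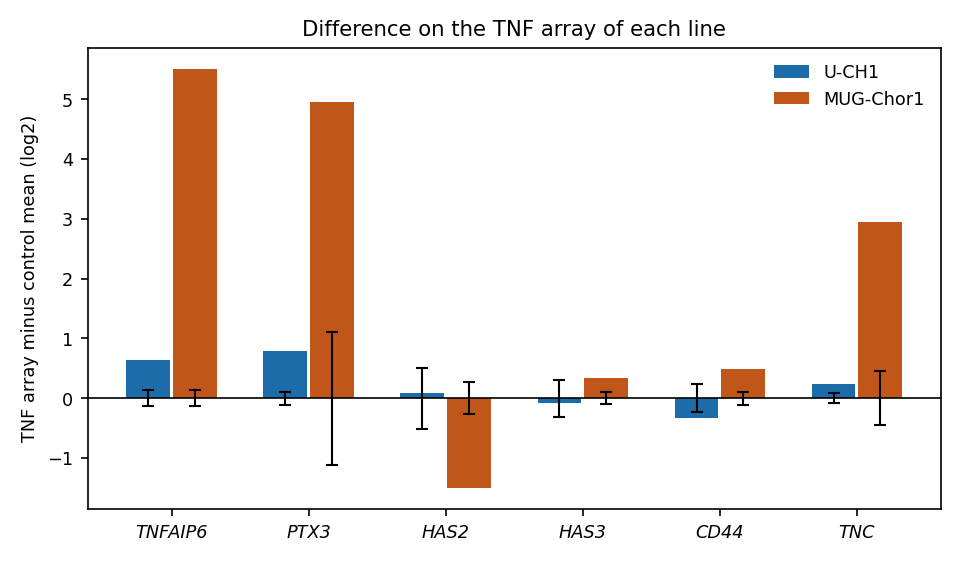
TNF array minus control mean (log2, vertical axis) for each of the 6 genes in U-CH1 (blue) and MUG-Chor1 (orange), with the SD of the 3 controls drawn around 0. The bars for TNFAIP6, PTX3, TNC and HAS2 in MUG-Chor1 reach 5.51, 4.95, 2.94 and -1.50, and no U-CH1 bar exceeds 0.78.

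Markers of other cell types were read on the same arrays, since fibroblasts and myeloid cells also make TSG-6 and PTX3. Over all genes, 2.88% passed in MUG-Chor1 (limma, adjusted p under 0.05), 1.41% of all genes being lower, and 1.27% in U-CH1. At an unadjusted p under 0.05 the shares of all genes were 12.6% in MUG-Chor1 and 10.8% in U-CH1. The markers were chosen with earlier results of these data known, so their counts beside these shares describe the choice. Of 6 tested fibroblast markers, 3 rose in MUG-Chor1: the proteoglycan gene LUM by 3.65, the protease gene FAP and the decorin gene DCN by 1.60. LUM was already well above the filter in both untreated lines, at 9.00, 9.75 and 9.26 in U-CH1 and 7.54, 7.45 and 5.99 in MUG-Chor1. FAP read 1.63 to 2.29 on the 6 controls, all below the filter, and 5.71 on the MUG-Chor1 TNF array, through which alone it was tested, so that its difference of 3.74 stands against a baseline at the low end of the scale. The DCN call ended without MUG-Chor1 control 1 or 2 or U-CH1 control 1 (limma adjusted p = 0.106, 0.0835 and 0.0627). With the filter on at least 3 arrays LUM was the 1 marker of the list that passed, since FAP and DCN were no longer tested. The mean level of the 7 fibroblast markers with a value was 4.62 on the MUG-Chor1 TNF array against 3.21 to 3.86 on its controls, and 4.03 against 3.80 to 4.07 in U-CH1. Within that list THY1 and PDGFRB read lower on the MUG-Chor1 TNF array than on every control (3.80 and 3.43), and TCF21 stayed below the filter on all arrays. Of 5 tested leukocyte markers, 0 passed in either line in limma (2 higher at an unadjusted p under 0.05 in MUG-Chor1 and 4 in U-CH1), and PTPRC, which encodes CD45, stayed between 0.93 and 1.23. The mean level of the 8 leukocyte markers with a value was 3.05 on the MUG-Chor1 TNF array (controls 2.80 to 2.96) and 3.26 on the U-CH1 one (controls 2.80 to 2.85). For the 6 endothelial markers with a value it was 2.73 (controls 3.17 to 3.43) and 2.92 (controls 2.87 to 2.99). Of 5 tested endothelial markers, 1 fell in MUG-Chor1 and 0 passed in U-CH1. The 1 was KDR, which read 7.52, 7.19 and 6.51 on the MUG-Chor1 controls and 4.71 on the TNF array (-2.37, limma adjusted p = 0.0121). Of 11 notochord and chordoma markers, 8 fell in MUG-Chor1 (7 without control 1, without any single U-CH1 control or with no filter, SOX6 being lost). In U-CH1 0 passed (4 lower at an unadjusted p under 0.05). With a variance trend in limma KRT19 passed there as lower (-1.03, limma adjusted p = 0.0183). The mean level of the 11 markers was 4.98 against 7.00 to 7.28 in MUG-Chor1 and 6.65 against 7.01 to 7.45 in U-CH1. The part of these shifts in the values of TNFAIP6, PTX3, HAS2 and TNC was not tested, and in such bulk samples a change in the number of cells of a kind cannot be told apart from a change in RNA per cell.

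The untreated lines were compared with each other in limma, as MUG-Chor1 controls minus U-CH1 controls, a comparison that did not choose the genes although it shares the control arrays with the differences above. HAS2 was 4.98-fold lower in MUG-Chor1, 3.94 ± 0.27 (SD, n = 3) against 6.26 ± 0.51 (SD, n = 3), a log2 difference of -2.32 ± 0.27 (SE; limma adjusted p = 2.35e-04). TNC was 2.84-fold lower, 3.91 ± 0.45 (SD, n = 3) against 5.42 ± 0.08 (SD, n = 3), a difference of -1.51 ± 0.24 (SE; limma adjusted p = 0.00164). In both genes the controls of the lines did not overlap, which held for 36.3% of all genes, and both kept the call without any single control. Between the untreated lines 18.9% of all genes were called, 10.3% higher and 8.57% lower in MUG-Chor1 (31.7% at an unadjusted p under 0.05), so 2 of 6 does not set these genes apart.

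The other 4 genes did not pass between the untreated lines. TNFAIP6 stood at -0.11 ± 0.19 (SE; limma adjusted p = 0.749), HAS3 at -0.42 ± 0.21 (SE; limma adjusted p = 0.199) and CD44 at 0.17 ± 0.20 (SE; limma adjusted p = 0.611). With both CD44 probe sets averaged the CD44 difference was 0.63, which did not pass either (limma adjusted p = 0.173). For TNFAIP6, below the median of all values on all 6 controls, a difference would hardly be visible at this level. PTX3 stood at 0.77 ± 0.43 (SE; limma adjusted p = 0.260), and depended on which MUG-Chor1 control was used. Without control 1 the difference was 1.31 and passed (limma adjusted p = 0.0334), and without control 3 it was 0.20.

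**Figure D3:**
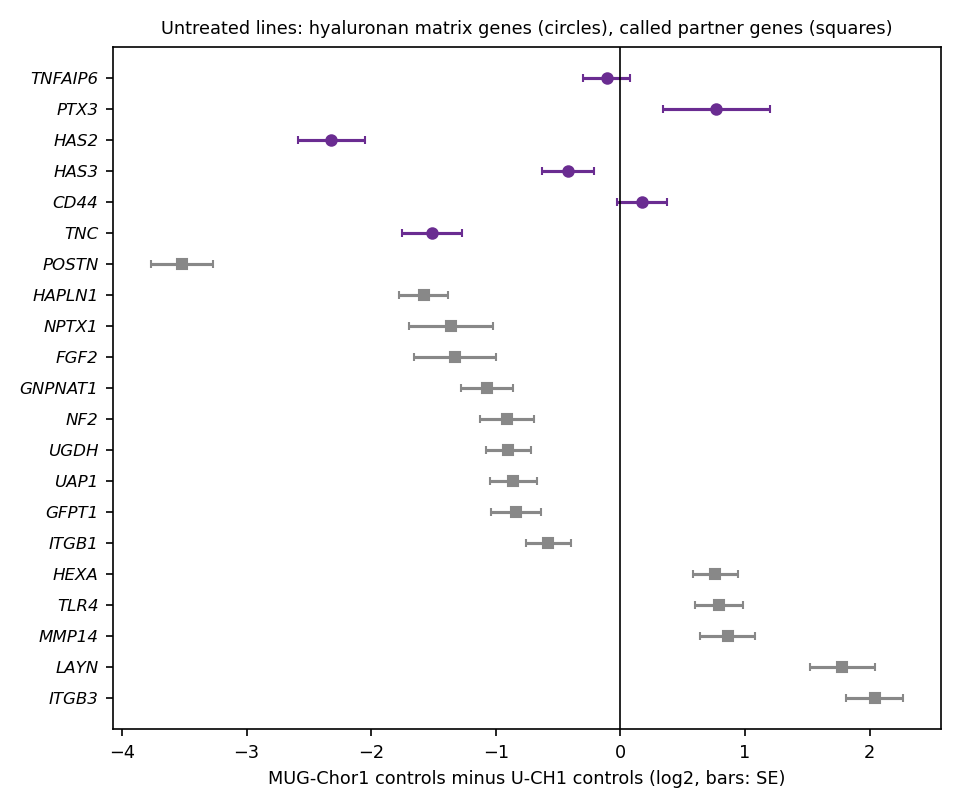
Untreated MUG-Chor1 minus untreated U-CH1 (log2, horizontal axis) with the SE from limma for the 6 genes (circles) and for the listed partner genes that passed (squares). HAS2 at -2.32 and TNC at -1.51 lie left of 0 among the 6 genes; POSTN at -3.52 and ITGB3 at 2.04 are the extremes among the partner genes.

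Levels of the 6 genes fell into different orders over the 4 conditions. For TNFAIP6 the order was MUG-Chor1 TNF, U-CH1 TNF, then both sets of controls, whose means of 2.00 (U-CH1) and 1.89 (MUG-Chor1) lay within their SD of 0.14. For PTX3 MUG-Chor1 TNF came first, and the U-CH1 TNF array and the MUG-Chor1 control mean, 3.33 and 3.32, were level. For TNC the order was MUG-Chor1 TNF, U-CH1 TNF, U-CH1 control and MUG-Chor1 control, with both U-CH1 conditions close together. For HAS2 both U-CH1 conditions were level at the top and MUG-Chor1 TNF was last. For HAS3 only the MUG-Chor1 controls lay below the rest, and for CD44 the span from lowest to highest array was 6.66 to 7.63 on the brighter probe set.

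The genes whose values over the 8 arrays were most like each of the 6 were ranked by Pearson's r among the genes tested. The arrays fall into lines and treatments, so r is a description of shape. For TNFAIP6 they were ATP6V0D2 (r = 0.988), RRAD (0.985) and HLX (0.984), and these likenesses rest on the MUG-Chor1 TNF array: over the other 7 arrays r was 0.27, 0.15 and 0.68. ATP6V0D2 read 1.65 to 2.34 on those 7 and 7.43 on the MUG-Chor1 TNF array. For PTX3 they were LUCAT1 (0.989), PILRA (0.984) and ERP29 (0.975), with r of 0.95, 0.87 and 0.90 over the other 7 arrays. LUCAT1, a long non-coding RNA, also had its highest control on MUG-Chor1 control 3 (4.17 against 2.98 and 3.27).

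For TNC the closest genes were DDIT4 (0.991), LUM (0.978) and CYP1B1 (0.976). LUM read 9.00 to 9.75 on the U-CH1 controls and 7.54, 7.45 and 5.99 on the MUG-Chor1 controls, and 10.65 on the MUG-Chor1 TNF array, the same crossing of lines as TNC. For HAS2 they were TAF1B and LAPTM4B (both 0.987) and NDUFA8 (0.984), which differed between the lines far less than HAS2 did; LAPTM4B read 8.48 to 8.70 on the U-CH1 controls and 7.69 to 8.04 on the MUG-Chor1 controls. For HAS3 they were HSPA6 (0.953), POLR1E and CIMIP2A (both 0.943), and for CD44 HERPUD1 and TFG (both 0.973) and RABGEF1 (0.955).

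Partner genes of the hyaluronan matrix were taken from 8 lists of 74 genes in all. Of these 65 had a probe set of their own and 53 passed the filter; the rest, HAS1, PGM3 and ITIH4 among them, are not analysed here or lay below the filter. In limma 2 of the 53 rose and 1 fell in U-CH1 (5.66%), where 1.27% of all genes passed, 0.913% upward and 0.359% downward. In MUG-Chor1 2 rose and 3 fell (9.43%), where 2.88% of all genes passed, 1.47% upward and 1.41% downward. The lists were drawn up with earlier results of these data known. Their shares beside all genes, here and below, therefore describe the choice and do not test the lists. At an unadjusted p under 0.05, used below only beside counts of 0, 10.8% of all genes passed in U-CH1 and 12.6% in MUG-Chor1. Their median difference was 0.13 (U-CH1) and 0.14 (MUG-Chor1), beside 0.04 and 0.06 over all genes. Without MUG-Chor1 control 3, 8 of the listed genes passed in MUG-Chor1, with FGF2, SDC4 and SPP1 added. Of the 3 calls in U-CH1, 0 were left in limma without U-CH1 control 2 and 1 without MUG-Chor1 control 1.

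Genes that supply the sugar precursors of hyaluronan included 1 that rose. UAP1, which makes UDP-N-acetylglucosamine, read 5.41, 5.74 and 5.56 on the MUG-Chor1 controls and 7.36 on the MUG-Chor1 TNF array, a rise of 1.78 ± 0.27 (SE; limma adjusted p = 0.00553). In U-CH1 it stood at 0.46 (limma adjusted p = 0.633), and the difference of TNF effects between the lines did not pass (1.33, limma adjusted p = 0.265). None of the 5 tested genes of this list passed in U-CH1 in limma (0 at an unadjusted p under 0.05). Between untreated lines 4 of the 5 were lower in MUG-Chor1, as HAS2 was: GNPNAT1 by 1.07, UGDH, which makes UDP-glucuronic acid, by 0.90, UAP1 by 0.86 and GFPT1 by 0.84 on the log2 scale. The calls of UAP1 and GFPT1 between the untreated lines ended without MUG-Chor1 control 1 (limma adjusted p = 0.0543 and 0.0666).

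Of 8 hyaluronan-binding proteoglycan and link protein genes, 3 fell in MUG-Chor1 and 0 passed in U-CH1 in limma (1 higher and 2 lower at an unadjusted p under 0.05). ACAN, which encodes aggrecan, read 8.16, 8.34 and 8.75 on the MUG-Chor1 controls and 4.33 on the MUG-Chor1 TNF array (-4.09 ± 0.35, SE; limma adjusted p = 2.16e-04). HAPLN1, the cartilage link protein gene, read 6.55, 6.45 and 6.80 and then 3.13 (-3.47 ± 0.28, SE; limma adjusted p = 1.58e-04). HAPLN3, a related link protein gene, read 7.16, 7.43 and 8.06 and then 4.69 (-2.86 ± 0.40, SE; limma adjusted p = 0.00347). These 3 proteins hold on to the same polymer that HAS2 makes, and HAS2 read lowest on the same array. A link between these readings was not tested, and hyaluronan itself was not measured. In U-CH1 the differences were -0.78 for ACAN, -1.13 for HAPLN1 and 0.54 for HAPLN3. VCAN, the versican gene, read 2.21 on the MUG-Chor1 TNF array against 2.21 to 2.57 on its controls. ACAN is also one of the 11 chordoma markers. The difference of TNF effects between the lines passed for these 3 genes (limma), against 0.530% of all genes; their values without single controls stand in the closing section.

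Lists tied to TNFAIP6 and PTX3 themselves showed no call on TNF. Of 5 tested inter-alpha-inhibitor chain genes, 0 passed in limma in either line (0 at an unadjusted p under 0.05), and ITIH2, with the smallest p in U-CH1, stood at 0.48 (limma adjusted p = 0.756). These chains are the substrate of TSG-6, are made mainly by the liver and reach cultured cells in serum, and here the tested genes read between 1.74 and 3.13 on all arrays. Of 8 tested pentraxins and PTX3 ligands, 0 passed in limma on TNF (1 higher at an unadjusted p under 0.05 in each line). FGF2, a growth factor that PTX3 binds, stood at 1.38 in MUG-Chor1 (limma adjusted p = 0.206). With single controls left out it ran from 1.09 to 1.81, and passed only without MUG-Chor1 control 3 (1.81, limma adjusted p = 0.00957). The neuronal pentraxin gene NPTX1 stood at 1.54 in U-CH1 (limma adjusted p = 0.214). It ran from 1.29 to 1.98, and passed only without U-CH1 control 3 (1.98, limma adjusted p = 0.0235). CRP, the short pentraxin C-reactive protein, read 2.24 to 2.99.

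Among receptors other than CD44, TLR2, which senses hyaluronan fragments, rose in U-CH1 from 3.28, 3.24 and 3.46 to 4.96 (1.63 ± 0.28, SE; limma adjusted p = 0.0223), a call that ended without U-CH1 control 1 or control 2 (limma adjusted p = 0.0648 and 0.0638). In MUG-Chor1 0 of 5 passed in limma (2 higher and 1 lower at an unadjusted p under 0.05). LAYN, which encodes layilin, stood at 0.99 there (limma adjusted p = 0.261). With single controls left out LAYN ran from 0.79 to 1.25 and never passed. It came closest without control 3 (1.25, limma adjusted p = 0.0555). LAYN and TLR4 were higher in untreated MUG-Chor1, by 1.78 and 0.79, and the TLR4 call ended without U-CH1 control 1 or MUG-Chor1 control 1. Of 8 CD44 partners and sheddases, 0 passed on TNF in limma (1 higher at an unadjusted p under 0.05 in U-CH1, 2 higher and 2 lower in MUG-Chor1). EZR, which encodes ezrin and links CD44 to actin, stood at -1.24 in MUG-Chor1 (limma adjusted p = 0.0835) and passed with the variance trend (limma adjusted p = 0.0372). SPP1, a CD44 ligand gene of this list, stood at -3.09 there (limma adjusted p = 0.0839). With single controls left out it passed only without MUG-Chor1 control 3 (-3.97, limma adjusted p = 5.68e-05). The sheddase gene ADAM17 stood at 0.81 in U-CH1 (limma adjusted p = 0.232). Of 5 hyaluronan degradation genes, 0 passed on TNF in limma (1 higher at an unadjusted p under 0.05 in U-CH1), with CEMIP2, a cell-surface hyaluronidase gene, at 0.99 in U-CH1 (limma adjusted p = 0.165) and HYAL2 at 0.50 in MUG-Chor1 (limma adjusted p = 0.494).

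The list around TNC, of tenascins, their receptors and fibronectin, had 9 tested genes. ITGB3, an integrin subunit of tenascin-C receptors, rose in MUG-Chor1 from 4.81, 4.49 and 4.95 to 7.10 (2.35 ± 0.33, SE; limma adjusted p = 0.00355), on the array where TNC was highest, and stood at 0.64 in U-CH1. SDC4, the syndecan-4 gene, rose in U-CH1 by 1.87 (limma adjusted p = 0.0413), and POSTN, which encodes the tenascin-C partner periostin, fell there by 1.84 (limma adjusted p = 0.0379). The SDC4 call ended without U-CH1 control 2 or 3 or MUG-Chor1 control 1 or 2, and the POSTN call without U-CH1 control 2 or 3 or MUG-Chor1 control 1. POSTN was the partner gene that differed most between untreated lines, 5.83 ± 0.43 (SD, n = 3) in U-CH1 and 2.31 ± 0.28 (SD, n = 3) in MUG-Chor1 (-3.52 ± 0.25, SE; limma adjusted p = 1.01e-05), in the same direction as TNC. ITGB3 was higher in untreated MUG-Chor1, by 2.04. ITGB1 was lower there by 0.58, a call that every control left out ended.

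**Figure D4:**
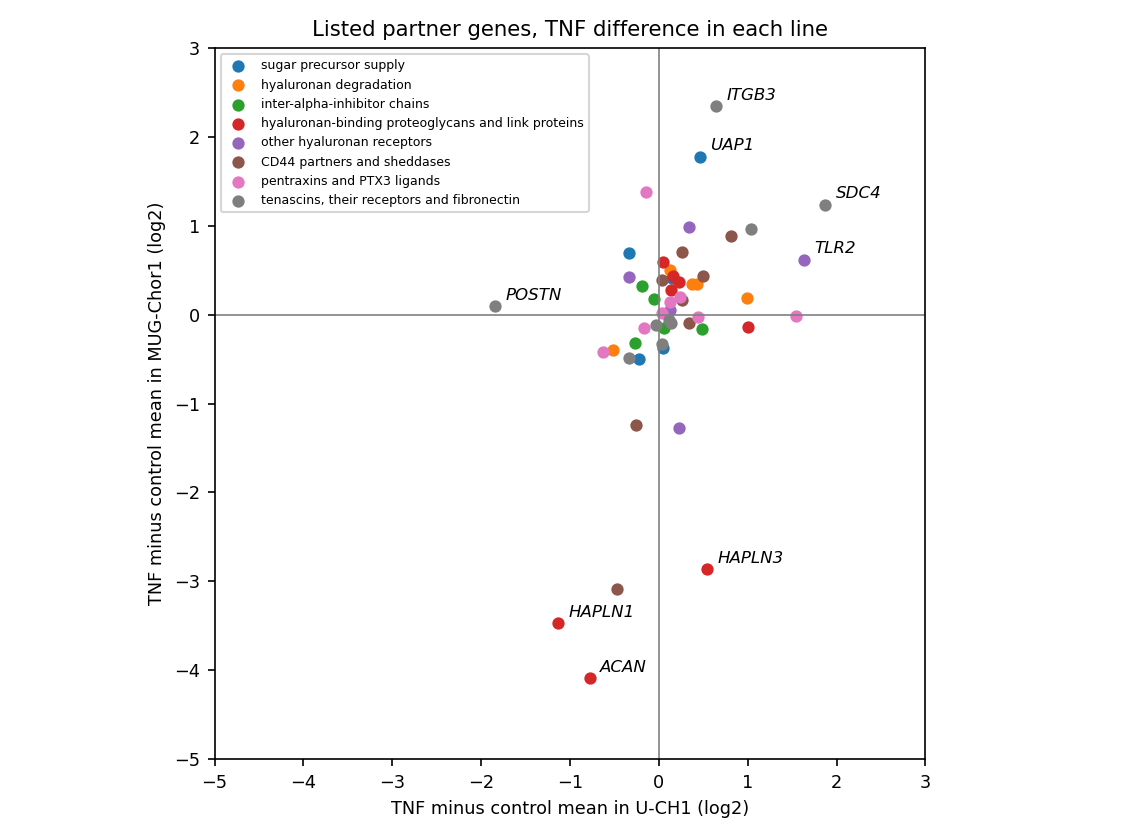
TNF array minus control mean (log2) in U-CH1 (horizontal axis) and MUG-Chor1 (vertical axis) for the 53 tested partner genes, coloured by list; names mark genes that passed in at least 1 line. ACAN, HAPLN1 and HAPLN3 lie at -4.09, -3.47 and -2.86 in MUG-Chor1, and ITGB3 and UAP1 at 2.35 and 1.78.

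Across the partner lists 10 genes were lower and 5 higher in untreated MUG-Chor1 than in untreated U-CH1 (28.3% of 53, against 18.9% of all genes). Besides those named above, HAPLN1 was lower by 1.58, NPTX1 by 1.36, FGF2 by 1.33 and NF2, which encodes merlin, by 0.91, and MMP14, which cleaves CD44, and the lysosomal gene HEXA were higher by 0.86 and 0.76. The calls of NPTX1, FGF2, NF2, MMP14 and HEXA ended without some control (limma adjusted p up to 0.0765), and the count of listed genes was 9 without U-CH1 control 1 and 8 without MUG-Chor1 control 1. AMBP was closest among the inter-alpha-inhibitor genes, at -0.27 (limma adjusted p = 0.377).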

How the data were processed

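The authors deposited a table of 53617 probe sets by 8 whole-transcript arrays. Per the submitters' processing notes it involved RMA and the Transcriptome Analysis Console, neither with a version. The deposited values are taken as log2, since RMA gives log2 and they run from 0.0648 to 12.7; the log base, genome build and annotation used upstream are not given in the sources used here. Because RMA brings arrays to a common distribution, shifts common to every gene are removed. No detection calls were used here. The number of arrays limits the precision.

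Probe sets were named from the supplied platform annotation, with symbols updated through RefSeq by Entrez identifier (22569 of 23871 probe sets with 1 symbol matched, 90 updated). Another 1842 had several symbols and 27904 were not listed. The brightest probe set on average stood for a gene. Of 22395 genes, 16986 lay above 2.57 on at least 1 array and were tested.

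limma 3.58.1 in R 4.3.3 (lmFit, eBayes) fitted 4 group means over all 8 arrays, two-sided, with 4 residual degrees of freedom, Benjamini-Hochberg adjustment over all genes tested and a threshold of 0.05; each lone TNF array is taken to scatter as the controls do. Scripts were checked on simulated data with known changes, over many random draws. The 6 genes, the gene lists and the markers were chosen with earlier results of these data known. Partner genes were named by rule: per list and comparison, up to 4 called genes by size, or the gene of lowest p if no gene was called; and for each of the 6 genes, the 3 with the highest r. Other genes quoted within a list were chosen after their values were seen. Alternatives covered the filter, probe set, normalization, variance model, threshold, a block and each control left out. Promoter windows come from RefSeq on GRCh38.p14.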

Additional observations from a re-analysis of the deposited data

Results flagged for a closer look

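The TNF effect differed between the lines in 3 partner genes of the hyaluronan matrix, by limma's test of the difference (MUG-Chor1 effect minus U-CH1 effect), which called 0.530% of all genes. The difference was -3.31 for ACAN (limma adjusted p = 0.0211), -2.34 for HAPLN1 (limma adjusted p = 0.0358) and -3.40 for HAPLN3 (limma adjusted p = 0.0322). Left-out controls ended these calls in part: without U-CH1 control 3 none of the 3 passed (limma adjusted p = 0.0547, 0.0547 and 0.0703), and without U-CH1 control 1, U-CH1 control 2 or MUG-Chor1 control 2 only ACAN did. Without MUG-Chor1 control 1 HAPLN1 alone of the 3 lost its call (limma adjusted p = 0.0908).

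CD44 lay below all controls on the U-CH1 TNF array and above all controls on the MUG-Chor1 TNF array, a gap of 0.80 between the lines' differences. This gap was not tested, and the dimmer CD44 probe set was below all controls in both lines.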

How the results depend on the processing

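Of the 6 genes' differences on TNF, the CD44 difference in MUG-Chor1 turned from 0.48 to -0.04 with both probe sets averaged, since the 2 probe sets disagree. With single controls of the line left out, the MUG-Chor1 differences ran from 5.46 to 5.59 for TNFAIP6, 4.42 to 5.52 for PTX3, 2.69 to 3.14 for TNC and -1.64 to -1.38 for HAS2. Between untreated lines, HAS2 ran from -2.57 to -2.06 and TNC from -1.70 to -1.26 and both passed each time, while PTX3 ran from 0.20 to 1.31 and passed without MUG-Chor1 control 1. The number of genes called with a control left out ran from 2123 to 3090 between untreated lines (3209 with all), 104 to 329 in U-CH1 (216), 284 to 664 in MUG-Chor1 (489) and 38 to 152 for the difference of the TNF effects (90). At an adjusted p under 0.1 it was 386 in U-CH1, 741 in MUG-Chor1 and 151 for the difference. The 45 named partner results held 15 calls between untreated lines, 3 in U-CH1, 5 in MUG-Chor1 and 3 for the difference. Of these calls 15 ended under some alternative, among them all 3 in U-CH1 and all 3 for the difference. SDC4 in U-CH1 also lost its call with no filter (limma adjusted p = 0.0553), and ITGB1 with the variance trend (limma adjusted p = 0.0512). Of the 45 results, 0 changed sign. Quantile normalization moved the median of all genes by no more than 0.03.

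The control numbers were used as a replicate block between untreated lines, where 3248 genes passed, HAS2 kept -2.32 (limma adjusted p = 1.40e-04) and TNC -1.51 (0.00182). Of the listed genes 15 passed, with SPP1 in (limma adjusted p = 0.0346) and ITGB1 out (0.0688). Same-numbered controls did not deviate together (r = 0.0426, -0.0571 and 0.163 across genes), so the numbers were not taken as pairs, and TNF arrays carry none.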

Other observations

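SPP1, which encodes osteopontin, a secreted ligand of CD44 and of integrins, was the most uneven partner gene among the controls. It read 11.00, 11.10 and 11.30 on the U-CH1 controls and 10.66 on the U-CH1 TNF array, and 10.36, 10.27 and 7.67 on the MUG-Chor1 controls and 6.34 on the MUG-Chor1 TNF array. MUG-Chor1 control 3, on which PTX3 was the highest and TNC the lowest of the 6 controls, was thus also the control with the lowest SPP1. The SPP1 difference in MUG-Chor1 was -3.09 (limma adjusted p = 0.0839), and -3.97 without that control (limma adjusted p = 5.68e-05). The difference of its TNF effects between the lines was -2.61 (limma adjusted p = 0.658), and -3.50 without that control (limma adjusted p = 0.00309). With single controls left out this difference ran from -3.50 to -2.15. Among those fits, both of these SPP1 results on TNF passed only without MUG-Chor1 control 3. Between untreated lines SPP1 stood at -1.70 (limma adjusted p = 0.0642). With single controls left out it passed there only when the control was of MUG-Chor1, at -2.17, -2.12 and -0.82 without controls 1, 2 and 3.

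HMMR, another hyaluronan receptor gene, read 6.37, 5.38 and 7.03 on the MUG-Chor1 controls and 4.98 on the MUG-Chor1 TNF array. Its difference of -1.28 did not pass (limma adjusted p = 0.315).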
